A study of Mus musculus with 4 samples.

Results

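Interferon response genes are a group of 31 genes that cells switch on when an interferon binds its receptor. They were taken as a fixed list of symbols, and each was read on all 4 arrays of the series, out of 30675 genes that could be named. The arrays were hybridised with total RNA of whole mouse trachea and whole mouse oviduct, with 1 array for each of 4 groups. The groups were Gemc1-null trachea (GEMC1 null, male, 39 days), WT trachea (WT, male, 39 days), Gemc1-null oviduct (GEMC1 null, female, 65 days) and WT oviduct (WT, female, 65 days). All animals were of a mixed C57BL/6 x 129 strain and received no treatment. The labels do not say whether 1 animal or a pool stood behind an array, nor which part of the gene the null allele lacks. Gemc1, now called Gmnc, encodes a geminin relative that starts the gene programme of multiciliated cells.

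A cell senses viral nucleic acid through receptors such as RIG-I and MDA5 and then secretes interferon. Interferon binds receptors that activate the kinases Jak1 and Tyk2, and the factor ISGF3, which holds Stat2 and Irf9, carries the signal to DNA. It binds the interferon-stimulated response element, ISRE, in front of genes that block viral entry, translation and replication, and gamma interferon acts mainly through the related GAS element. Cells of the airway lining keep part of this programme on at a basal level. Usp18 is a brake on it: the enzyme takes the ubiquitin-like modifier Isg15 off proteins and, at the receptor, dampens signalling.

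The promoters of 23 of the 31 genes were found in RefSeq (GRCm38.p6), as windows that reach 250 bases before and 50 after the start of transcription. Oas2, Usp18, Mx1, Mx2, Dhx58, Parp9, Zbp1 and Rtp4 had no entry. The ISRE letters, GAAA, any 2 bases and GAAA, searched on both strands, were present in 46.2% of the 26 windows of these genes and in 3.44% of all 32851 windows. The GAS letters, TTC, any 3 bases and GAA, which read the same on both strands, were present in 26.9% and 8.30%. A match is a match of letters only. Stretches of 120 bases from 5 promoters are shown 5′ to 3′ because they carry these letters, so that the elements can be seen beside the values that follow. Capitals mark the ISRE letters in the first 4 and the GAS letters in Irf1. They are Oas1a (chr5:120907526-120907645, minus strand), Ifit1 (chr19:34640739-34640858, plus strand), Rsad2 (chr12:26456509-26456628, minus strand), Isg15 (chr4:156200827-156200946, minus strand) and, for GAS, Irf1 (chr11:53769868-53769987, plus strand). Oas1a also holds a GAS match, left in lower case (ttcaaagaa). In Oas1a and Isg15 the ISRE matches overlap, and in Ifit1 and Rsad2 they lie on the other strand.
Oas1a: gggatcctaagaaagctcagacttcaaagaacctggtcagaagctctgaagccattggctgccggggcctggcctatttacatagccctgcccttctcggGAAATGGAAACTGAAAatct
Ifit1: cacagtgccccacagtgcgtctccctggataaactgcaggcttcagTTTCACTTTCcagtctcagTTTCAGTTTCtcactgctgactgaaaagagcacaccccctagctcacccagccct
Rsad2: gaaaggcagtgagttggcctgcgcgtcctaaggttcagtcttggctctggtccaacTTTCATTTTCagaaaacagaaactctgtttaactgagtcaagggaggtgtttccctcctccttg
Isg15: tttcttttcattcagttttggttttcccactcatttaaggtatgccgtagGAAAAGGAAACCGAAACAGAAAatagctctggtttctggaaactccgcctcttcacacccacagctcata
Irf1: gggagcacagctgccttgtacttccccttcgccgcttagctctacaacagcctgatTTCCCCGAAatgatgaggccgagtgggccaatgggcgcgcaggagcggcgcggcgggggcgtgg

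Levels are given as the log2 of the RMA signal and differences as levels subtracted on that scale, so that 1 unit is 2-fold. With 1 array per group, a difference within a tissue has no replicate check, no error and no test, and the number of arrays limits its precision. Members were therefore counted by size, at least 2-fold lower or higher. The median over all probe sets was 5.91 to 6.00 on the 4 arrays, and the median of 5222 negative-control probe sets was 5.74 on the Gemc1-null trachea array, 5.98 on the WT trachea array, 5.79 on the oviduct array labelled Gemc1-null and 5.77 on the WT oviduct array. Over probe sets the correlation was r = 0.945 between the trachea arrays and r = 0.979 between the oviduct arrays. The targeted gene, Gmnc, stood at 4.63 on the trachea array that carries the Gemc1-null label and 5.90 on the WT trachea array, both below those negative-control medians. In oviduct it stood at 8.86 on the array labelled Gemc1-null and 6.11 on the WT array, which goes against the label if the probes lie in the deleted part. Genes of motile cilia, the programme that Gemc1 starts, ran the way the labels say. At least 2-fold lower on the arrays labelled Gemc1-null were 14 of 15 in trachea and 13 of 15 in oviduct. The shares over all named genes were 5.26% and 1.84%. Markers of several other cell types also differed between the trachea arrays, as given below, so the trachea count by itself does not check the label. The arrays are called by their labels, and every direction rests on them.

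In trachea, all 31 interferon response genes had a lower signal on the array labelled Gemc1-null than on the WT array. Their median difference was -0.85, against 0.06 over all named genes, of which 41.2% were below 0. The differences ran from -1.99 for Oas2 to -0.11 for Cmpk2. At least 2-fold lower were 13 of the 31, or 41.9%, against 5.26% of all named genes, or 7.74% of the 20142 genes at or above the median signal of at least 1 trachea array. None of the 31 was at least 2-fold higher, against 4.39% of all named genes. Nearest to the 2-fold line lay Ifit1, inside it at 2.03-fold lower, and Rsad2, outside it at 1.99-fold lower.

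**Figure D1:**
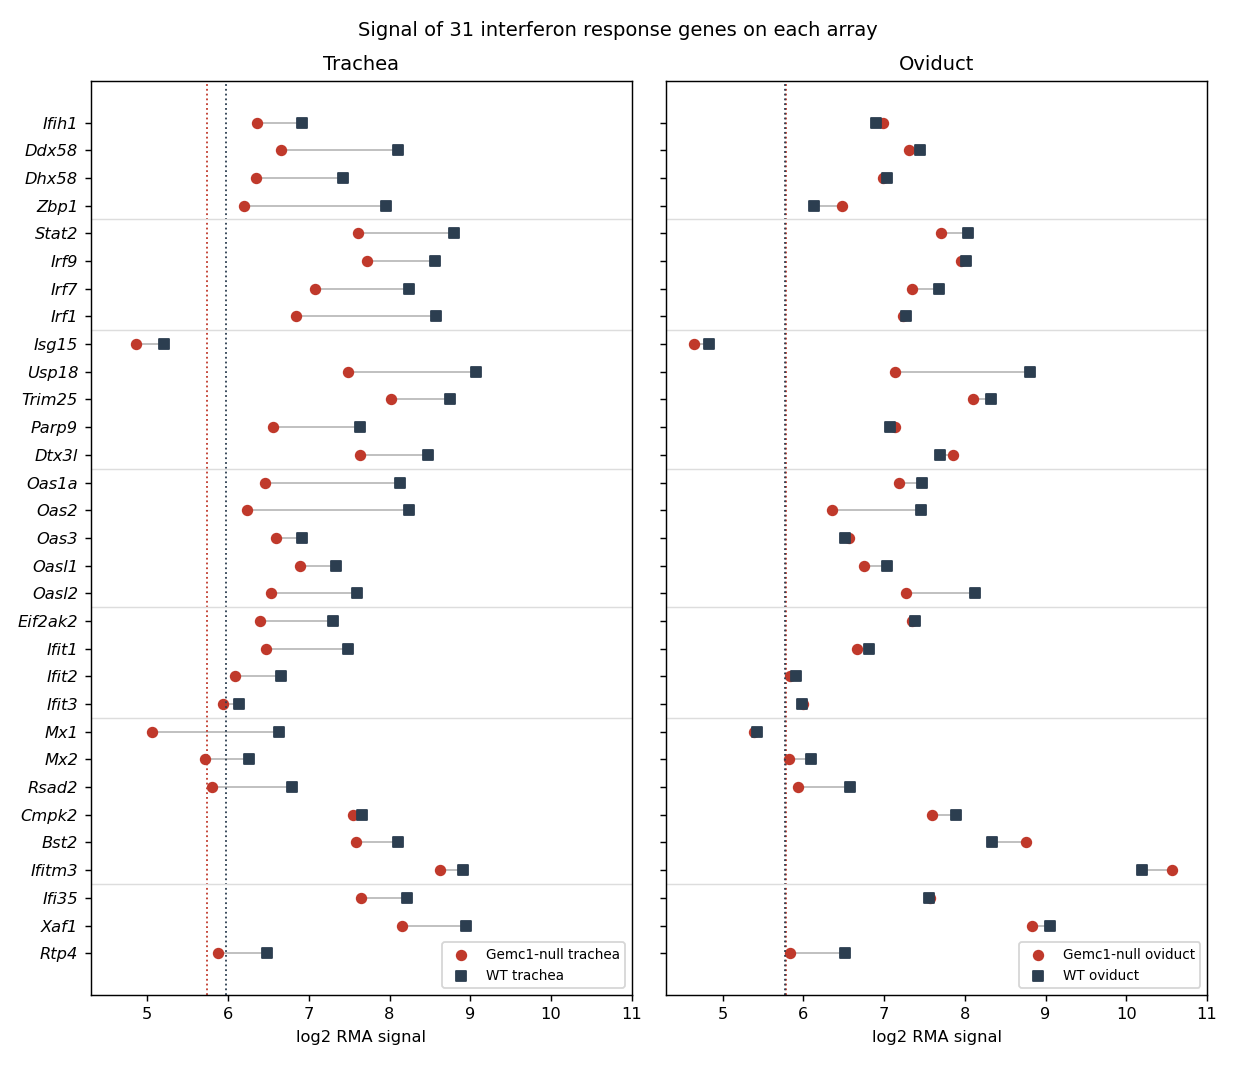
Log2 RMA signal (x axis) of the 31 interferon response genes (rows, grouped by role) on the Gemc1-null arrays (circles) and the WT arrays (squares) of trachea (left) and oviduct (right), 1 array each. Dotted lines mark each array's negative-control median (5.74 and 5.98 in trachea, 5.79 and 5.77 in oviduct). In trachea all 31 circles lie left of their squares, while in oviduct most pairs nearly coincide and Usp18 and Oas2 stand apart.

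Among the RNA and DNA sensors, 3 of 4 were at least 2-fold lower in trachea. Zbp1, which binds nucleic acids in the left-handed Z form, read 6.20 on the array labelled Gemc1-null and 7.95 on the WT array, 3.35-fold lower. Ddx58, which encodes RIG-I, read 6.65 and 8.10 on the same arrays, 2.75-fold lower. Dhx58, which encodes their regulator LGP2, was 2.12-fold lower, and Ifih1, which encodes MDA5, differed by -0.55. All 4 stood above the negative-control medians on both trachea arrays, so these differences were measured on both sides.

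Of the transcription factors, 3 of 4 were past 2-fold in trachea as well. Irf1, an early factor of the interferon response, read 6.84 on the array labelled Gemc1-null and 8.58 on the WT array, 3.34-fold lower. Irf1 is the only member with a second probe set, which gave a difference of 0.14 in trachea and -0.22 in oviduct, so the probe sets of Irf1 disagree. Stat2, a subunit of ISGF3, read 7.61 and 8.80 on the same arrays, 2.28-fold lower. Irf7, which amplifies interferon production, read 7.08 and 8.24, 2.23-fold lower, and Irf9, the DNA-binding part of ISGF3, differed by -0.85.

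The 2′-5′ oligoadenylate synthetase family, whose active enzymes switch on the nuclease RNase L, had 3 of 5 members past 2-fold in trachea. Oas2 had the lowest difference of the list, with 6.24 on the array labelled Gemc1-null and 8.24 on the WT array, 3.98-fold lower. Oas1a read 6.46 and 8.13 on the same arrays, 3.17-fold lower. Oasl2 was 2.10-fold lower, while Oasl1 differed by -0.45 and Oas3 by -0.33. Oas1a has close copies in the mouse genome (Oas1b differed by -1.93, Oas1g by -1.29 and Oas1c by -0.93). How far their probes can tell them apart is not known here.

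Past 2-fold in trachea were 1 of 4 effectors that act on translation (median -0.74) and 1 of 6 other antiviral effectors (median -0.54). Ifit1, which binds viral RNA caps and halts their translation, was 2.03-fold lower, with Ifit2 at -0.57 and Ifit3 at -0.20. Eif2ak2, the RNA-activated kinase PKR, differed by -0.91. Of the other effectors Mx1, a dynamin-like GTPase, read 5.06 on the array labelled Gemc1-null and 6.63 on the WT array. The dimmer value was below the negative controls of its array, so the measured 2.97-fold stands only as at least 1.85-fold, and without Mx1 the count past 2-fold is 12 of 31. Its relative Mx2 was at least 1.43-fold lower on the same terms. Rsad2, which encodes viperin, read 5.80 and 6.79, and its neighbour Cmpk2, a mitochondrial nucleotide kinase, by -0.11. Bst2, which tethers budding virus to the cell, differed by -0.52, and Ifitm3, which blocks fusion in endosomes, by -0.28.

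Within the ISG15 and ubiquitin group, Usp18 read 7.48 in Gemc1-null trachea and 9.07 in WT trachea, 3.02-fold lower, and was the fifth lowest of the 31. Parp9, which binds ADP-ribose, was 2.09-fold lower and its ubiquitin ligase partner Dtx3l differed by -0.84. Trim25, the ligase that activates RIG-I, differed by -0.73. Isg15 itself was under the negative controls on all 4 arrays, at 4.86 and 5.21 in trachea and 4.64 and 4.83 in oviduct (Gemc1-null and WT), so its probe set gives no fold here. The other induced genes were all under 2-fold: Xaf1 at -0.80, Rtp4, a chaperone of membrane receptors, at -0.60, and Ifi35 at -0.56.

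In oviduct the same list stayed close to 0. The median difference of the 31 genes was -0.13, against 0.05 over all named genes, and 22 of the 31 were below 0, or 71.0%, against 39.7%. At least 2-fold lower were 2 of 31, or 6.45%, against 1.84% of all named genes and 2.75% of the 19691 at or above the median signal of at least 1 oviduct array. These 2 were Usp18, which had been singled out with these values known, and Oas2. None was at least 2-fold higher, against 0.551% of all named genes. The other 29 were under 2-fold, from Oasl2 at -0.85 to Bst2 at 0.42.

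Usp18 had the largest difference of the list in oviduct, with 7.14 on the array labelled Gemc1-null and 8.81 on the WT array, 3.18-fold lower. Oas2 read 6.35 and 7.46 on the same arrays, 2.16-fold lower. Oasl2 read 7.27 and 8.12, Rtp4 5.84 and 6.51, and Rsad2 5.94 and 6.58, each under 2-fold. The sensors ran from -0.13 for Ddx58 to 0.35 for Zbp1, and the transcription factors from -0.34 for Stat2 to -0.04 for Irf1. Mx1 was under the negative controls on both oviduct arrays. Ifitm3 read 10.56 on the array labelled Gemc1-null and 10.20 on the WT array, a difference of 0.36.

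**Figure D2:**
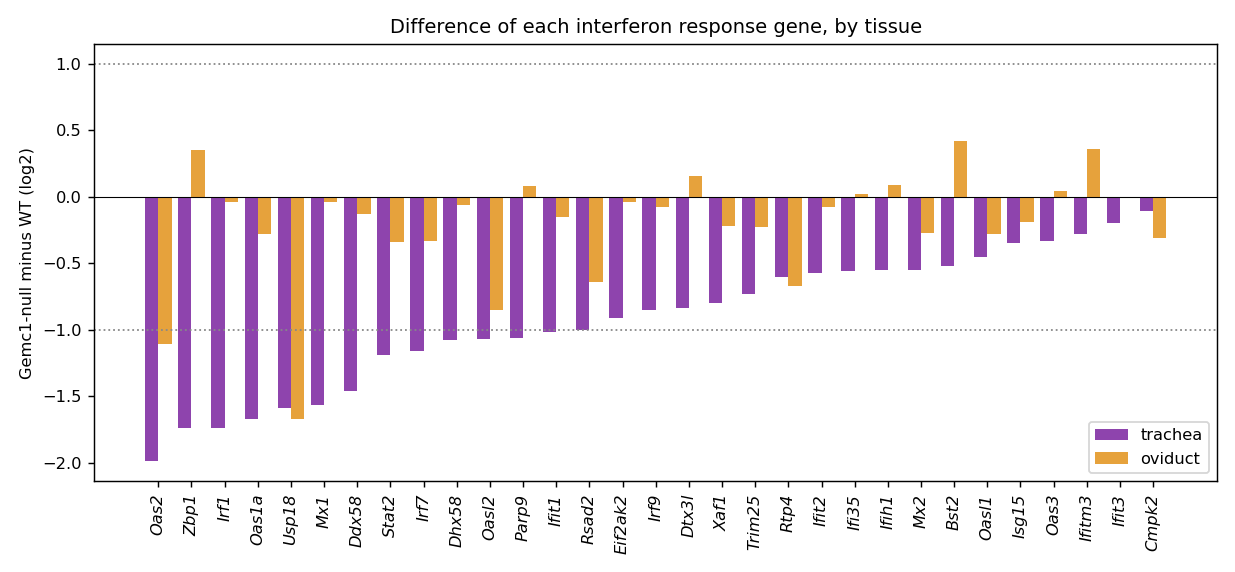
Log2 difference, Gemc1-null minus WT (y axis), of each of the 31 interferon response genes in trachea (left bar of each pair) and oviduct (right bar), ordered by the trachea value, with dotted lines at 2-fold. All trachea bars point down, from -1.99 (Oas2) to -0.11 (Cmpk2), while in oviduct only Usp18 (-1.67) and Oas2 (-1.11) pass the line.

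Usp18 was set against the other 30 members in each tissue. In trachea it lay 0.75 below their median of -0.84 and inside their range of -1.99 to -0.11. In oviduct it lay 1.57 below their median of -0.10 and outside their range of -1.11 to 0.42, as the lowest of the 31. Its difference was of like size in both tissues, -1.59 in trachea and -1.67 in oviduct. This is a description of 4 arrays, since Usp18 had been singled out with these values known.

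Most other members were lower relative to WT in trachea than in oviduct. In 28 of 31 the trachea difference was below the oviduct difference, or 90.3%, against 48.9% of all named genes. Besides Usp18, with 0.08 between its 2 differences, the exceptions were Cmpk2 (0.19) and Rtp4 (0.07). The gap was widest for Zbp1 (-2.10), Irf1 (-1.70) and Mx1 (-1.53), the last with background on both oviduct arrays. The second probe set of Irf1 gave 0.14 in trachea and -0.22 in oviduct. Across the 31 genes the differences of the tissues, which share no array, had a Pearson r of 0.35, r was 0.26 over the 30 without Usp18, and r was 0.07 over the 27 without Usp18, Oas2, Oasl2 and Rtp4. Usp18, Oas2, Oasl2 and Rtp4 are the lowest of the 31 in oviduct and were taken out with these values known. Leaving out the lowest values of 1 axis can by itself lower r, so no conclusion is drawn from the 0.07. Genes of 1 array are not independent, and each point shares its array's normalization with the others.

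**Figure D3:**
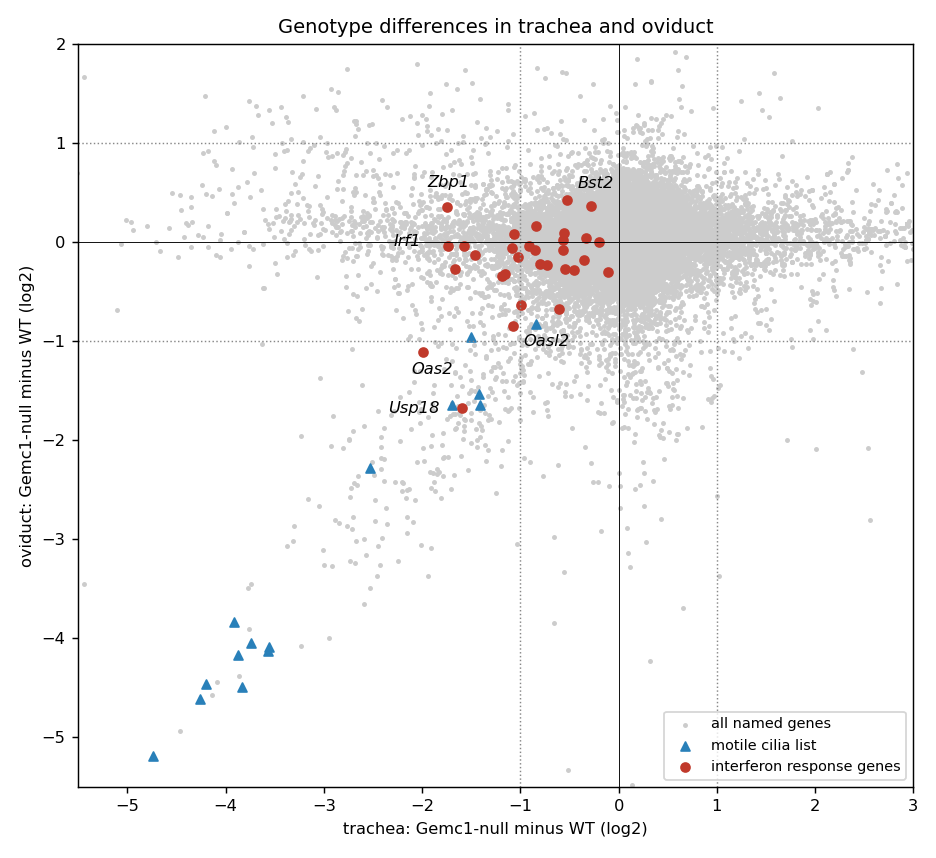
Log2 difference, Gemc1-null minus WT, in trachea (x axis) and oviduct (y axis) for all named genes (grey), the motile cilia list (blue triangles) and the 31 interferon response genes (red circles), with dotted lines at 2-fold. 171 named genes, none of them a member, fall outside the plotted range. Usp18 lies at -1.59 and -1.67, near cilia genes of smaller difference such as Rsph1 (-1.69 and -1.65). The medians of the cilia list are -3.57 in trachea and -4.05 in oviduct. Most other members spread along the x axis with oviduct values near 0.

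At least 2-fold lower in both tissues were 2 of the 31 members, Usp18 and Oas2, or 6.45%, against 252 of all named genes, or 0.822%. Usp18, 1 of the 2, had been singled out with these values known, so the share is not read as a trait of the list. Lower by as much as Usp18 in both tissues, Usp18 included, were 128 named genes, or 0.417%. Of 15 measured genes of motile cilia, among them the dynein heavy chains Dnah5 and Dnah6, 10 were in that set. The linear signal summed over the 15 cilia genes was 705 in Gemc1-null trachea and 6449 in WT trachea, and 791 in Gemc1-null oviduct and 8795 in WT oviduct. Of the 15, 11 were under the negative controls in Gemc1-null trachea and 10 in Gemc1-null oviduct. The cilia genes differed on the same arrays and in the same direction as Usp18, and their part in its value was not tested.

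The protein-coding genes on either side of Usp18 in the RefSeq order did not share its pattern. On one side Tuba8, a tubulin of muscle and testis, had a difference of 2.52 in trachea and -0.06 in oviduct, Pex26 by 0.14 and 0.25, and Mical3 by 0.18 and 0.26. On the other side Slc6a13 differed by 0.65 and 0.06, Slc6a12 by 0.24 and 0.28, and Iqsec3 by 0.34 and 0.09. None of these 6 was as much as a log2 of 0.1 lower in either tissue.

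A limma fit over the 4 arrays, with tissue as a block, asked for a genotype difference shared by trachea and oviduct. It has 1 residual degree of freedom, from the disagreement between the tissues. limma draws that error toward a variance estimated over all genes, with 1.77 prior degrees of freedom. The SE and p-values therefore rest on both. Of 20971 genes tested 0 passed a Benjamini-Hochberg adjusted p of 0.05 (0%), and 0 of the 30 members tested did. Isg15 was too dim to enter. At an unadjusted p under 0.05 in limma there were 5 of the 30 members, all lower: Usp18, Oasl2, Oas2, Rsad2 and Rtp4. Of all genes tested 2.70% were lower at that level. Rsad2 and Rtp4 were under the array median on both Gemc1-null arrays and entered the fit through the WT arrays alone. Without a filter on level there were again 5, of 31 members, against 2.29% of all named genes. Since Usp18 had been singled out with these values known, no conclusion about the list is drawn from the count. Usp18 had a log2 difference of -1.63 (SE 0.150) and a limma adjusted p of 0.550, with a lower signal in 2 of 2 tissues. For Oas2 the fit gave -1.55 (SE 0.304), for Oasl2 -0.96 (SE 0.162), for Rsad2 -0.82 (SE 0.183) and for Rtp4 -0.64 (SE 0.149), each with a limma adjusted p of 0.828.

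The tissues were also set side by side, although tissue, sex and age go together in this design and cannot be told apart. Between the WT arrays the members were on the whole brighter in trachea, with a median difference, WT trachea minus WT oviduct, of 0.40 against -0.08 over all named genes. At least 2-fold higher in WT trachea were 3 of 31, against 4.37% of all named genes: Zbp1 (3.53-fold), Irf1 (2.48-fold) and Mx1. Mx1 was at least 1.81-fold higher, since its WT oviduct value lay below background. The second probe set of Irf1 went the other way, with 6.04 in WT trachea and 6.72 in WT oviduct. At least 2-fold lower was 1, against 3.63%: Ifitm3, which read 8.91 in WT trachea and 10.20 in WT oviduct. Usp18 read 9.07 and 8.81 on those arrays, a difference of 0.26. Between the arrays labelled Gemc1-null, Ifitm3 (-1.93) and Bst2 (-1.17) were at least 2-fold lower in trachea than in oviduct, 2 of 31 against 4.49% of all named genes, and 0 were higher against 4.70%. Usp18 had the highest of the 31 differences there, 0.34, with 7.48 in trachea and 7.14 in oviduct.

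Other genes of the pathway were taken from 8 lists, of which 106 of 119 genes outside the 31 were measured. In trachea 44 of these 106 were at least 2-fold lower and 0 higher, with a median of -0.91, beside the 5.26% and 4.39% of all named genes given above. In oviduct 0 were at least 2-fold lower and 1 higher, with a median of 0.03, beside 1.84% and 0.551% of all named genes. The interferon genes themselves had 0 of 10 past 2-fold in either tissue. Of these 10, 5 were under the negative controls in Gemc1-null trachea and 8 in WT trachea.

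Among receptors and signalling genes 3 of 14 passed 2-fold in trachea, all lower, and 0 of 14 in oviduct. Ifnar2, a subunit of the type I interferon receptor and the docking site of the Usp18 protein, gave -1.10 in trachea and -0.23 in oviduct, and the other subunit, Ifnar1, by -0.77 and -0.25. For gamma interferon, Ifngr1 differed by -1.03 and -0.12 and Ifngr2 by -0.58 and -0.16. For lambda interferon, the epithelial branch, Ifnlr1 differed by -0.06 and 0.03, and its partner Il10rb was 1.99-fold lower in trachea and 1.45-fold lower in oviduct. Ptpn6, a phosphatase of blood cells, differed by -2.61 in trachea and 0.21 in oviduct.

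The enzymes that attach Isg15 to proteins, opposite in action to Usp18, were at least 2-fold lower in trachea in 2 of 3. Uba7, the activating enzyme, read 7.02 in Gemc1-null trachea and 8.79 in WT trachea, and 7.80 on both oviduct arrays. Herc6, the mouse ligase, gave -1.43 in trachea and 0.09 in oviduct, and Ube2l6, the conjugating enzyme, by -0.42 and 0.14. None of the 3 was lower in oviduct by 2-fold, where Usp18 was.

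Of 36 further interferon-stimulated genes, 18 were past 2-fold, all lower, in trachea and 0 past 2-fold in oviduct, with medians of -1.03 and -0.08. The 3 lowest were Epsti1 (-3.37 in trachea, 0.41 in oviduct), Sp100, a nuclear body protein (-2.46 and 0.06), and Trim30a (-2.15 and -0.48). The sensors and adaptors had 6 of 16 at least 2-fold lower in trachea, led by Sting1, the adaptor of DNA sensing (-2.79 and 0.77), Tlr9, the receptor of CpG DNA (-2.74 and -0.05), and Samhd1, a nucleotide hydrolase (-2.04 and -0.17). The GTPases that gamma interferon induces had 7 of 11 at least 2-fold lower in trachea. They were led by Gbp8 (-2.47), Gvin1 (-2.30) and Gbp4 (-2.29), and Gbp8 was the one gene of the 8 lists at least 2-fold higher in oviduct (1.01). Genes of MHC class I and the immunoproteasome had 7 of 11 past 2-fold in trachea, all lower (median -1.58). In oviduct 0 of 11 were past 2-fold (median 0.06). In trachea H2-K1 differed by -2.64, Tap1, the peptide transporter, by -1.99 and H2-Q4 by -1.98. Of 6 induced chemokines Ccl5 (-3.92) and Cxcl9 (at least 8.89-fold lower), both ligands of lymphocyte receptors, were past 2-fold in trachea, while Cxcl10 differed by -0.14. Gbp and MHC class I genes have close copies, and the files do not show how far their probes can tell them apart.

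**Figure D4:**
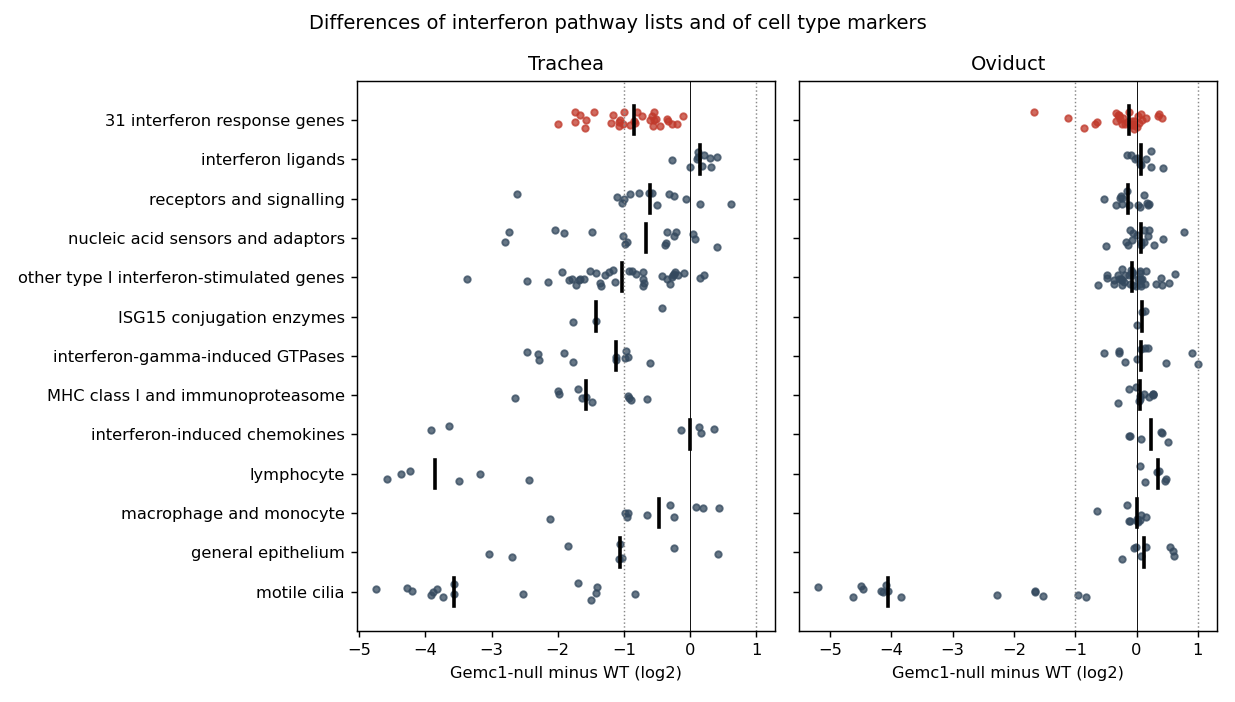
Log2 difference, Gemc1-null minus WT (x axis), of each gene (points) in the 31 interferon response genes, 8 other pathway lists and 4 lists of cell type markers (rows), for trachea (left) and oviduct (right), with the median of each row as a black bar and dotted lines at 2-fold. Most pathway rows lie left of 0 in trachea and around 0 in oviduct, and the lymphocyte row lies between -4.58 and -2.43 in trachea alone.

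Markers of several cell types differed between the same trachea arrays. Lymphocyte markers were at least 2-fold lower in 6 of 6, with a summed signal of 344 on the array labelled Gemc1-null, where 3 of 6 (Cd3g, Ms4a1 and Cd2) were under the negative controls, and 5089 on the WT array. In oviduct the sums were 446 and 357. Conventional dendritic cell markers were lower in 3 of 5 (245 and 781 in trachea), plasmacytoid dendritic cell markers, of which Bst2 is also a member, in 4 of 7 with 1 higher (2210 and 2716), and macrophage markers in 1 of 10 (3308 and 9629). Without the brightest gene on the WT array, Lyz2 among the macrophage markers and Irf8 among the plasmacytoid ones, those sums were 1608 and 2306 for macrophages and 2057 and 1797 for plasmacytoid dendritic cells, a choice made after seeing the data. General epithelial markers were lower in 6 of 8 (2117 and 5051), airway secretory markers in 7 of 7 (878 and 37905), adipocyte markers in 6 of 6 (750 and 5602) and endothelial markers in 1 of 5 (1134 and 2179). Markers of skeletal muscle were higher in 8 of 8 (40185 and 1134) and of squamous epithelium in 6 of 6 (27266 and 374). In bulk tissue fewer cells of a type and less RNA per cell cannot be told apart. The part of these markers in the trachea differences of the interferon response genes was not tested. In oviduct 0 of the 6 lymphocyte markers and 0 of the 8 epithelial markers were past 2-fold, while ovarian somatic markers were lower in 7 of 7 (664 on the array labelled Gemc1-null and 12258 on the WT array). The part of the ovarian markers in the Usp18 and Oas2 values was not tested.

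Members with and without the ISRE letters had medians within a log2 of 0.2 of each other. The 12 members with an ISRE match in their RefSeq window had a median difference of -0.73 in trachea and -0.08 in oviduct, and the 11 with a window but no match had -0.80 and -0.22. The 7 with a GAS match had -0.57 and -0.04, and the 16 without had -0.82 and -0.20. Of the promoters shown, Oas1a differed by -1.67 in trachea, Ifit1 by -1.02 and Irf1, with its GAS match, by -1.74, while Rsad2 was 1.99-fold lower. The second probe set of Irf1 gave 0.14 in trachea. Isg15, also shown, was under the negative controls on all 4 arrays and gives no fold. These are medians and values without a test, and no match says only that the letters were not in that window.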

How the data were processed

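Transcript levels of 4 mouse tissue samples were measured on 1-colour Affymetrix arrays. Per the labels' protocols, total RNA was column-purified and labelled as sense-strand cDNA. The authors deposited 1 value per probe set and array, made with RMA per the submitters' processing notes, on a log2 scale; no source used here gives its version or settings. A log2 had been taken on top of that scale: raising 2 to a deposited value returned 6 significant digits for 100% of cells (relative tolerance 1e-09), while 0.044% of the values were so short as they stand. The raised value is the log2 signal used.

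Of 65956 transcript clusters 31223 had 1 gene through the platform annotation and RefSeq (GRCm38.p6), giving 30675 genes. For the 438 with several probe sets the one with the highest mean was used. Main counts have no filter on level. A fold is "at least" where the dimmer signal was under the negative controls of its array, whose median then took its place. limma 3.58.1 (R 4.3.3) was fitted to genes at or above an array's median signal on at least 1 array, and p-values were adjusted over all of them. Its code was also run on simulated arrays with known changes. Their noise was set and not taken from the disagreement of the tissues, so that run does not bear on the p-values given here. The 31 members and the other lists were chosen with earlier results of these data known. All members are named. Of the other lists the rule was to name receptor subunits, Isg15 enzymes and up to 3 genes per list with the largest differences past 2-fold. Oas1b, Oas1c, Oas1g and Cxcl10 were named outside that rule. Values without the doubted array could not be had, with 1 array per group. Alternatives tried were the fold threshold, a level filter, a background floor, the mean over probe sets, array centring and the design of the limma fit.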

Additional observations from a re-analysis of the deposited data

Results flagged for a closer look

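The genotype difference had opposite signs in trachea and oviduct for 8 members, each lower in trachea and higher in oviduct on the array labelled Gemc1-null. Ifit3 is left out of the 8, since its oviduct difference was 0.00 at 2 decimals. With 1 array per group none of these contrasts was tested. Among all named genes 41.2% were below 0 in trachea and 39.7% in oviduct. Their share with opposite signs was not taken, so the count of 8 is not a result about the members. The trachea difference minus the oviduct difference was -2.10 for Zbp1, -1.14 for Parp9, -1.0 for its partner Dtx3l, -0.94 for Bst2, -0.64 for Ifih1, -0.64 for Ifitm3, -0.58 for Ifi35 and -0.38 for Oas3.

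Among the 24 other pathway genes named by the rule for the lists, 12 had opposite signs in the same sense, none of them tested. For Ifnlr1 both differences were under a log2 of 0.1. Oas1b, Oas1c, Oas1g and Cxcl10, also given above, are not among the 24. The same contrast was -4.32 for Ccl5, -4.16 for Cxcl9, -3.78 for Epsti1, -3.56 for Sting1, -3.48 for Gbp8 and -3.20 for Gbp4. It was -2.82 for Ptpn6, -2.51 for Sp100, -2.03 for Tap1, -1.51 for Herc6, -0.57 for Ube2l6 and -0.09 for Ifnlr1. Cxcl9 was under the negative controls on the Gemc1-null trachea and WT oviduct arrays, so its -4.16 rests partly on background. Apart from the receptor subunits and Isg15 enzymes, the genes were named for the largest differences past 2-fold of their lists. All 24 were lower in trachea, so the count of 12 turns on the oviduct sign alone. Among all named genes 39.7% were below 0 in oviduct.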

How the results depend on the processing

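Of 48 alternative values 9 moved, and all 9 are given here. The fold threshold moved the counts of members by its own construction. In trachea (Gemc1-null minus WT) 20 of 31 were lower at 1.5-fold and 5 at 3-fold, against 9.35% and 2.86% of all named genes. In oviduct 5 and 1 were lower, against 3.74% and 0.877%, the 1 at 3-fold being Usp18. Between WT trachea and WT oviduct 12 (1 lower and 11 higher) and 1 (higher) were past those thresholds, against 9.96% lower and 8.27% higher at 1.5-fold and 2.15% higher at 3-fold. Between the arrays labelled Gemc1-null 9 and 1 were, all lower, against 10.9% and 1.81%. The median of the members in oviduct was -0.08 with signals raised to the negative-control median. The trachea count was 12 with that floor, which ends the call of Mx1, and 12 with the mean over probe sets, which ends that of Irf1, and each also took that gene off the WT tissue count, leaving 3. Under the 4 alternatives run for it, Usp18 stayed 0.69 to 0.77 below the median or mean of the other members in trachea. In oviduct it stayed 1.51 to 1.60 below that median or mean. limma called 0 members under each of 4 alternatives, with 4 or 5 at an unadjusted p under 0.05 and an adjusted p for Usp18 of 0.424 to 0.553. The limma fit with tissue as a block pairs the 2 arrays of a tissue. No replicate could be left out and no block by replicate number could be fitted, because each group has 1 array.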
